A study of Mus musculus with 8 samples.

Results

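The genes described are 10 subunits of the BAF (mammalian SWI/SNF) chromatin remodeling complexes, read by gene symbol out of the 48709 genes listed for each library. They are *Arid1a* and *Arid1b* of canonical BAF, *Arid2*, *Pbrm1* and *Brd7* of PBAF, *Brd9* and *Bicral* of noncanonical BAF (ncBAF), and the BCL7 genes *Bcl7a*, *Bcl7b* and *Bcl7c*. The rule names genes by symbol and uses no measured value, although earlier results of these data were known when it was set. All 10 passed the filter on low counts, which kept 16287 genes.

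BAF complexes use ATP to move or evict nucleosomes, and neurons need them during differentiation of the cortex. The kinds of complex share an ATPase and are told apart by a few subunits. ARID1A or ARID1B, never both in the same complex, mark canonical BAF. ARID2, PBRM1 and BRD7 mark PBAF, and BRD9 together with BICRA or BICRAL marks ncBAF. The BCL7 proteins are small accessory subunits. BAF155 and BAF170, whose genes were deleted here, are scaffold proteins of BAF complexes, though not every kind of complex holds both. The study reports that BAF complex function is lost when both are deleted. The comparison therefore asks whether RNA of the subunits that define each complex differed in cortex in which the scaffold genes were deleted.

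RNA was sequenced from whole cortex of mice at postnatal day 1 (P1), with 4 control and 4 mutant libraries. In the mutant (dcKO_Nex-Cre) the floxed genes of BAF155 (*Smarcc1*) and BAF170 (*Smarcc2*) were deleted with Nex-Cre, which is active in the postmitotic projection neurons of the cortex, so that glia and interneurons keep both genes. Control mice were heterozygous for both floxed alleles (BAF155fl/+, BAF170fl/+) and Cre negative, and all mice had a C57BL6/J background. The genotype labels state only control or mutant, so the Cre line and the control genotype were taken from the study's methods. Nothing in the labels says whether libraries of a group came from separate animals, so p-values measure only the spread between these libraries, which may be technical.

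Total counts ranged from 17958641 to 35191912 per library, and mitochondrial genes took 2.33% to 6.87% of the counts. The highest mitochondrial shares were those of control replicate 2 (6.87%) and dcKO_Nex-Cre replicate 4 (6.15%). In the file names, lane tag 8 marked replicates 3 and 4 of the mutant and no control, and lane tag 2 marked the other 6 libraries. *Smarcc2* fell from 462 ± 25.8 CPM (counts scaled to a common library size) to 263 ± 26.03 CPM (SD, n = 4 each), a log2 fold change of -0.81 (adjusted p = 0.00267, edgeR), and *Smarcc1* fell from 148 ± 11.6 to 102 ± 13.7 CPM, a log2 fold change of -0.53 (adjusted p = 0.0348, edgeR). In the 8 fits that each left out 1 library, *Smarcc2* passed the threshold in all, and *Smarcc1* only without dcKO_Nex-Cre replicate 2 or 4. All 9 markers of cortical projection neurons were detected, and their summed level was 1214 to 1388 CPM in control and 1150 to 1330 CPM in dcKO_Nex-Cre libraries. Of these markers *Emx1*, a cortical transcription factor, fell from 21.9 to 14.4 CPM (log2 fold change -0.60, adjusted p = 0.0332, edgeR). In bulk cortex, fewer cells of a type and less RNA per cell cannot be told apart, and this holds for every value below.

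None of the 10 genes changed past an adjusted p of 0.05 in edgeR's quasi-likelihood test, with Benjamini-Hochberg adjustment over all genes tested. At that threshold 0.375% of all tested genes were higher and 0.51% were lower in the dcKO_Nex-Cre cortex. The lowest adjusted p among the 10 was 0.197, for *Arid2*. DESeq2 and limma-voom, which called 1.32% and 0.307% of genes higher, also put 0 of the 10 past the threshold. At an unadjusted p under 0.05, edgeR had 3 of the 10 higher (*Arid1a*, *Arid1b* and *Arid2*) and 0 lower, beside 6.59% of all genes higher and 7.05% lower. Without control replicate 1, control replicate 4 or dcKO_Nex-Cre replicate 1, that count in edgeR was 1 of the 10, *Arid2*, beside 4.67%, 4.7% and 4.87% of all genes. DESeq2 had 4 of the 10 higher at an unadjusted p under 0.05 (*Arid1a*, *Arid1b*, *Arid2* and *Bicral*), beside 6.96% of all genes. In limma-voom 3 were higher (*Arid1a*, *Arid2* and *Bicral*), beside 6.4% of all genes, and *Arid1b* did not pass (unadjusted p = 0.0508, limma-voom). Of the 10 fold changes, 7 were above 0, as were 50.9% of all genes, and their median log2 fold change was 0.13, against 0.0043 for all genes tested. The adjusted call turned on a single library. Without dcKO_Nex-Cre replicate 4, edgeR put *Arid1a*, *Arid1b* and *Arid2* past the adjusted threshold, all higher, while the share of all genes called higher was then 3.98%.

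**Figure D1:**
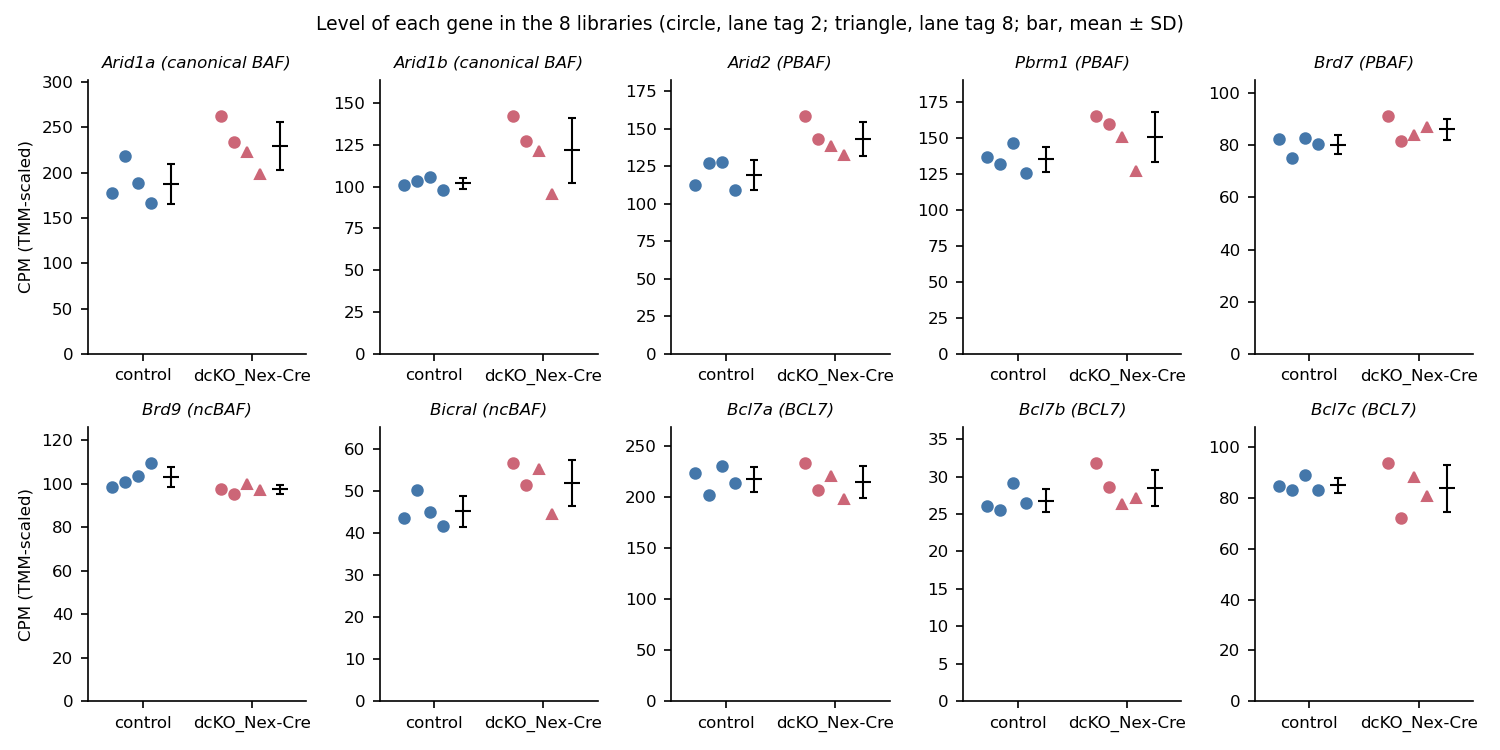
Level of each of the 10 genes in CPM (y axis, from 0) in the 4 control (blue) and 4 dcKO_Nex-Cre (red) libraries, with lane tag 2 as circles, lane tag 8 as triangles and bars for the mean ± SD. The groups are fully apart for Arid2 alone, and dcKO_Nex-Cre replicate 1, the leftmost red point, is the highest mutant library for 9 of the 10 genes.

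*Arid1a* (ENSMUSG00000007880) encodes an AT-rich interaction domain (ARID) protein, the large DNA-binding subunit of canonical BAF. The gene lies on chromosome 4 of GRCm38, from 133679008 to 133756769 on the minus strand, and its longest annotated transcript has 8187 bases in 20 exons. RefSeq gives *Arid1a* more than 1 start site. The 250 bases just upstream of the outermost (build GRCm38.p6, minus strand, chr4:133756770-133757019) are shown, because *Arid1a* had the highest log2 fold change of the 10 and this window overlaps no annotated exon. CpG dinucleotides are in capitals.
Arid1a promoter: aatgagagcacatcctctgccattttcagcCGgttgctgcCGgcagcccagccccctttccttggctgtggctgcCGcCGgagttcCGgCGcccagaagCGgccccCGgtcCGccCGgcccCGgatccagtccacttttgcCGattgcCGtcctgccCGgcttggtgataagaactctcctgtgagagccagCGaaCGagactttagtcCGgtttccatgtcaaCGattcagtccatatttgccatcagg
This window holds 18 CpG and has a GC content of 61.2%, against medians of 6 CpG and 52.4% over the 32851 promoter windows of the same length in RefSeq. It has 1 match to the GC box GGGCGG, found in 32.7% of all windows, and 1 match to the ETS core CCGGAA, found in 12%, both searched on either strand. Neither TATAAA nor CCAAT, found in 12.4% and 33.8% of windows, occurs in it. The window of a second start site, 2784 bases further into the gene, also overlaps no exon and holds 33 CpG, 81.6% GC, 7 GC box matches and 0 ETS core matches. RefSeq promoters were matched for 7 of the 10 genes, and each of their windows held at least 18 CpG, as did 21.7% of all windows. Promoters of *Arid2*, *Bicral* and *Bcl7a* were not analysed here.

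In the control, *Arid1a* was at 178, 218, 188 and 166 CPM, and in the mutant at 263, 234, 223 and 199 CPM. All mutant libraries but replicate 4 were above all control libraries, and replicate 4 lay below control replicate 2. The means were 188 ± 22.4 and 230 ± 26.5 CPM (SD, n = 4 each), and the log2 fold change was 0.29 (SE 0.11, 95% interval 0.056 to 0.53, adjusted p = 0.269, edgeR). *Arid1b* (ENSMUSG00000069729, chromosome 17, 4994332 to 5347656, plus strand), the paralog that takes the place of ARID1A in other canonical BAF complexes, has a longest transcript of 11325 bases. Its control libraries lay close together at 101, 103, 106 and 98.0 CPM. The mutant libraries were at 142, 127, 121 and 95.4 CPM, so that replicates 1 to 3 were above every control library and replicate 4 below every one. The means were 102 ± 3.35 and 122 ± 19.6 CPM, and the log2 fold change was 0.26 (SE 0.11, 95% interval 0.021 to 0.49, adjusted p = 0.325, edgeR). The interval of either gene thus runs from close to no difference up to a fold of 1.44 for *Arid1a* and 1.40 for *Arid1b*.

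The shares of the paralogs were close in both groups. Per length, *Arid1a* made up 66.7% ± 2.17 of the summed *Arid1a* and *Arid1b* level in the control and 67.5% ± 1.38 in the mutant (SD, n = 4 each), a difference of 0.81 percentage points. *Arid2* made up 31.2% ± 0.85 of the 3 ARID genes in the control and 31.1% ± 1.33 in the mutant, a difference of -0.10 percentage points. With all 8 libraries both differences are smaller than the SD of either group. Leaving out 1 library took the first to between 0.118 (without dcKO_Nex-Cre replicate 4) and 1.87 (without control replicate 2) percentage points, and the second to between -0.762 (without dcKO_Nex-Cre replicate 4) and 0.278 (without control replicate 3), so its sign was not stable.

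*Arid2* (ENSMUSG00000033237, chromosome 15, 96287518 to 96404992, plus strand; longest transcript 8507 bases) encodes the ARID subunit that takes the place of ARID1A and ARID1B in PBAF. It was at 112, 128, 128 and 109 CPM in the control, and at 159, 144, 138 and 132 CPM in the dcKO_Nex-Cre cortex. Every mutant library was above every control library, which held upward for 3.99% of all tested genes and downward for 4.01%, and for no other gene of the 10 in either direction. The means were 119 ± 9.85 and 143 ± 11.3 CPM (SD, n = 4 each), with a log2 fold change of 0.27 (SE 0.08, 95% interval 0.082 to 0.45, adjusted p = 0.197, edgeR). By unadjusted p it ranked 709 of 16287 genes.

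The other two PBAF genes differed less, and their intervals include 0. *Pbrm1* (ENSMUSG00000042323, chromosome 14, 31019138 to 31121592, plus strand) encodes polybromo-1, which reads acetylated histones through several bromodomains. It was at 137, 132, 147 and 126 CPM in the control and at 166, 160, 151 and 127 CPM in the mutant, where replicates 1 to 3 were above every control library and replicate 4 was among them. Its log2 fold change was 0.16 (SE 0.09, 95% interval -0.046 to 0.36, adjusted p = 0.472, edgeR). *Brd7* (ENSMUSG00000031660, chromosome 8, 88331039 to 88362194, minus strand), which encodes the single-bromodomain protein of PBAF, was at 82.5, 74.99, 82.7 and 80.7 CPM in the control and at 91.4, 81.8, 84.1 and 87.2 CPM in the mutant. Only dcKO_Nex-Cre replicate 2 fell inside the control range. The log2 fold change of *Brd7* was 0.10 (SE 0.07, 95% interval -0.049 to 0.25, adjusted p = 0.526, edgeR).

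The defining genes of ncBAF lay on opposite sides of 0. *Brd9* (ENSMUSG00000057649, chromosome 13, 73937811 to 73960895, plus strand) encodes the bromodomain subunit that sets ncBAF apart. It was at 98.5, 101, 104 and 110 CPM in the control and at 97.7, 95.045, 99.7 and 96.9 CPM in the dcKO_Nex-Cre cortex, where replicate 3 alone reached into the control range. The log2 fold change was -0.08 (SE 0.06, 95% interval -0.22 to 0.056, adjusted p = 0.574, edgeR), an interval of the fold from 0.857 to 1.04. *Bicral* (ENSMUSG00000036568, chromosome 17, 46798120 to 46858482, minus strand), for a scaffold protein of ncBAF, was at 43.6, 50.4, 45.1 and 41.6 CPM in the control and at 56.8, 51.5, 55.3 and 44.5 CPM in the mutant. Its mutant replicates 1 to 3 were above every control library, and replicate 4 was among them. The log2 fold change of *Bicral* was 0.21 (SE 0.09, 95% interval -0.0035 to 0.41, adjusted p = 0.374, edgeR). Its paralog *Bicra*, the alternative ncBAF scaffold gene, was at 43.8 ± 6.98 CPM in the control and 45.7 ± 4.62 CPM in the mutant (log2 fold change 0.06, 95% interval -0.19 to 0.32, adjusted p = 0.833, edgeR).

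The differences of the BCL7 genes were no larger than their standard errors. *Bcl7a* (ENSMUSG00000029438, chromosome 5, 123343834 to 123374992, plus strand) was at 224, 203, 231 and 214 CPM in the control and at 234, 207, 220 and 199 CPM in the mutant, and the groups overlapped almost wholly. Its log2 fold change was -0.02 (SE 0.08, 95% interval -0.19 to 0.16, adjusted p = 0.935, edgeR). *Bcl7b* (ENSMUSG00000029681, chromosome 5, 135168283 to 135181855, plus strand), the least abundant in CPM and the shortest of the 10 transcripts at 1758 bases, was at 26.0, 25.6, 29.1 and 26.5 CPM in the control and at 31.8, 28.6, 26.3 and 27.1 CPM in the mutant. The groups of *Bcl7b* overlapped, and its log2 fold change was 0.09 (SE 0.09, 95% interval -0.10 to 0.28, adjusted p = 0.679, edgeR). Without dcKO_Nex-Cre replicate 1 the log2 fold change of *Bcl7b* was 0.03. *Bcl7c* (ENSMUSG00000030814, chromosome 7, 127661456 to 127708933, minus strand) was at 84.6, 83.1, 89.1 and 83.04 CPM in the control and at 93.8, 72.2, 88.4 and 80.9 CPM in the mutant, which held both the highest and the lowest library. Its log2 fold change was -0.02 (SE 0.09, 95% interval -0.21 to 0.17, adjusted p = 0.941, edgeR). Per length, *Bcl7a* made up 50.04% ± 0.85 of the 3 BCL7 genes in the control and 49.2% ± 0.97 in the mutant, while *Bcl7b* took 24.3% ± 0.59 and 25.7% ± 1.53, and *Bcl7c* 25.7% ± 0.54 and 25.1% ± 1.55 (SD, n = 4 each).

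**Figure D2:**
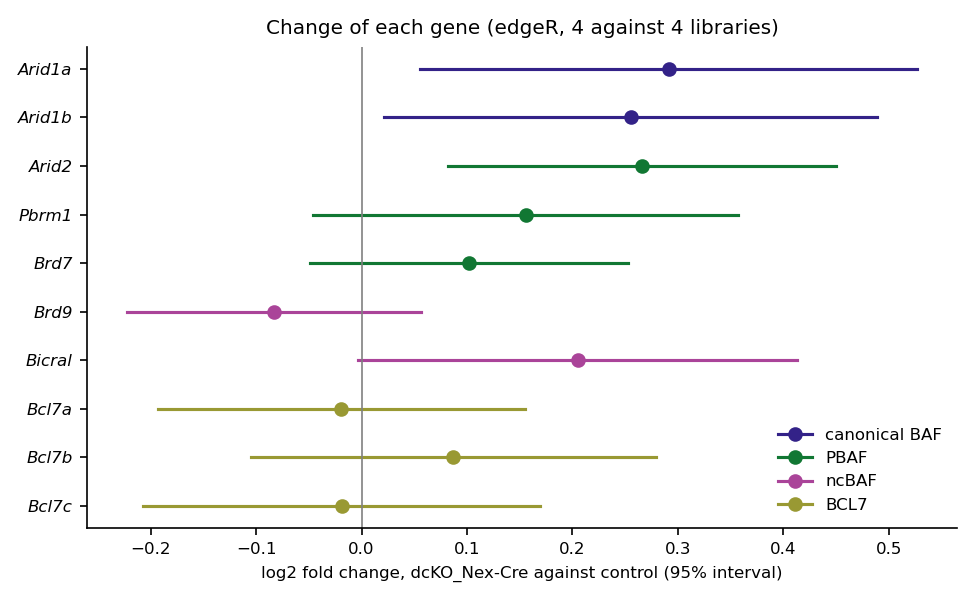
Log2 fold change of dcKO_Nex-Cre against control (x axis) for each gene, with the 95% interval from edgeR as a line and colors for the complex. The intervals of Arid1a, Arid1b and Arid2 lie above 0 before adjustment for the genes tested, and the other 7 intervals include 0.

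By role, the median log2 fold change was 0.27 for the 2 canonical BAF genes, 0.16 for the 3 PBAF genes, 0.06 for the 2 ncBAF genes and -0.02 for the 3 BCL7 genes. Differences between these groups were not tested. Of the 18 other subunits of the complexes, 0 rose and 2 fell past an adjusted p of 0.05 in edgeR, the 2 being the deleted genes. At an unadjusted p under 0.05, *Smarcd1*, *Smarce1* and *Ss18* were higher and *Dpf3* was lower beside the deleted genes. Leaving out the deleted genes, 12 of 16 were above 0, with a median log2 fold change of 0.08, and for 4 of the 16 every mutant library was above every control library, beside the 3.99% of all genes given above. The 10 genes thus had 7 of 10 above 0 and 1 of 10 fully apart, against 12 of 16 and 4 of 16 for the other subunits.

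The levels of different genes were compared as CPM per kilobase of exon. In the control, *Bcl7a* was highest at 22.96 ± 1.30 CPM per kilobase (SD, n = 4), and its libraries did not overlap with those of *Arid1a*, the next gene, at 16.4 ± 1.95. *Arid1a*, *Pbrm1* (15.3 ± 0.98), *Brd7* (15.3 ± 0.69) and *Brd9* (14.8 ± 0.68) followed with overlapping libraries and could not be ordered. A step without overlap led to *Bcl7c* (11.8 ± 0.39), *Bcl7b* (11.2 ± 0.66) and *Arid2* (11.1 ± 0.92), which overlapped with each other. *Arid1b* came below them at 8.10 ± 0.27, and *Bicral* was lowest at 6.60 ± 0.55, both without overlap with the gene above. In the dcKO_Nex-Cre cortex *Bcl7a* (22.7 ± 1.62) was still first by its mean and *Bicral* (7.59 ± 0.80) last, but neighbours in the order did not overlap only between *Brd7* (16.4 ± 0.79) and *Brd9* (14.01 ± 0.28). *Arid2*, at 13.3 ± 1.06 CPM per kilobase, stood above *Bcl7b* and *Bcl7c* in the mean there, with overlapping libraries. These levels use the union of annotated exons as length, so a gene with exons little used in cortex reads low on this scale.

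**Figure D3:**
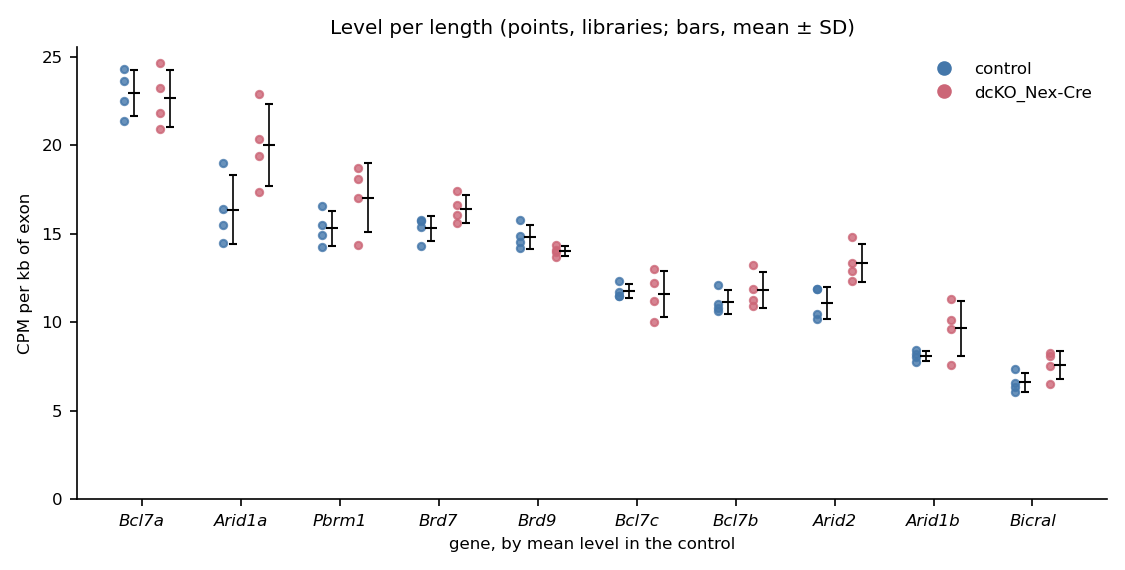
Level per length (y axis, CPM per kilobase of exon, from 0) of the 10 genes in order of their control mean, with 1 point per library and bars for the mean ± SD in control (blue) and dcKO_Nex-Cre (red). Bcl7a stands above the other genes in the control, and Arid1b and Bicral stand below.

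The same libraries often stood highest or lowest of their group over these genes. dcKO_Nex-Cre replicate 1, the deepest library and the one of lowest mitochondrial share (2.33%), was the highest mutant library for 9 of the 10 genes. Replicate 4, with the highest mitochondrial share of the mutants (6.15%), was the lowest for 6. For *Arid1a*, *Arid1b*, *Arid2* and *Pbrm1*, the 4 mutant libraries ordered by level stood in the reverse of their order by mitochondrial share. In the control this held for 2 other genes, *Brd7* and *Bcl7a*. Among the mutants, total counts fell in the same order as mitochondrial share rose, from 35191912 in replicate 1 to 17958641 in replicate 4. Lane tag 8 marked mutant replicates 3 and 4, so mitochondrial share, depth and lane cannot be told apart in the mutant order. Control replicate 2, the library of highest mitochondrial share, was the highest control library for *Arid1a* and *Bicral* and the lowest for 3 genes. Control replicate 3 was the highest for 7 of the 10 genes and control replicate 4 the lowest for 6. Such orders were not counted over all genes. The part of the mitochondrial share in the differences was not tested beyond leaving these libraries out.

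The 3 ARID genes were also compared with fewer libraries. Without dcKO_Nex-Cre replicate 4, the log2 fold change was 0.36 for *Arid1a* (adjusted p = 0.0493, edgeR), 0.36 for *Arid1b* (adjusted p = 0.0171) and 0.31 for *Arid2* (adjusted p = 0.0442). Over the 8 fits that each left out 1 library, the adjusted p of *Arid1a* ran up to 0.523, that of *Arid1b* up to 0.582 and that of *Arid2* up to 0.467 in edgeR. Within lane tag 2, with 4 control libraries against 2 mutant ones, *Arid1b* passed the adjusted threshold at a log2 fold change of 0.41 (adjusted p = 0.0426, edgeR), while *Arid1a* (0.41, adjusted p = 0.0851) and *Arid2* (0.35, adjusted p = 0.0825) did not, where 0.834% of all genes were called higher. With control replicate 2 and dcKO_Nex-Cre replicate 4 both left out, a fit chosen after seeing the data, 4 of the 10 genes were higher past the adjusted threshold, beside 5.49% of all genes. They were *Arid1a* at a log2 fold change of 0.44 (adjusted p = 0.00661, edgeR), *Arid1b* at 0.36 (adjusted p = 0.0102), *Arid2* at 0.34 (adjusted p = 0.019) and *Bicral* at 0.33 (adjusted p = 0.0116). *Pbrm1*, at 0.22 (adjusted p = 0.0661, edgeR), did not pass there. At an unadjusted p under 0.05, 5 of the 10 (*Arid1a*, *Arid1b*, *Arid2*, *Pbrm1* and *Bicral*) were higher in each of these fits, beside 14.3% of all genes without dcKO_Nex-Cre replicate 4, 11.7% in lane tag 2 and 14.9% without both libraries. No gene of the 10 was lower past the threshold in any of these fits.

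**Figure D4:**
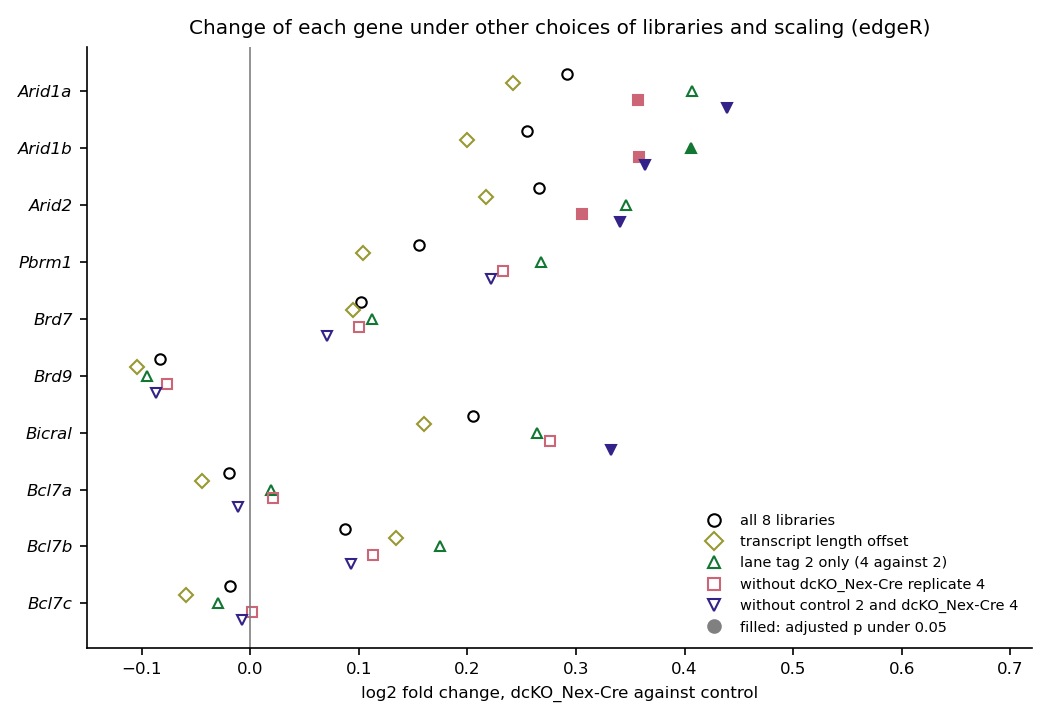
Log2 fold change of each gene (x axis) with all 8 libraries (circles), with an offset for transcript length (diamonds), within lane tag 2 (upward triangles), without dcKO_Nex-Cre replicate 4 (squares) and without control replicate 2 and dcKO_Nex-Cre replicate 4 (downward triangles), with filled symbols for an adjusted p under 0.05. Filled symbols appear for the 3 ARID genes and Bicral, and none of them with all 8 libraries.

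Transcript length moved with the differences over all genes. The median log2 fold change was -0.08 for the 3824 tested genes whose longest transcript is under 2 kb, 0.0022 for the 6539 genes of 2 to 4 kb, 0.04 for the 4967 genes of 4 to 8 kb and 0.07 for the 914 genes over 8 kb. *Arid1a*, *Arid1b* and *Arid2* are in the longest class, in which 64.7% of genes were above 0 and 9.74% were higher at an unadjusted p under 0.05. All 3 ARID genes lay above the upper quartile of that class, 0.17. *Bicral* and *Pbrm1* lay above the upper quartile of theirs, 0.14, whereas *Bcl7a*, *Bcl7c* and *Brd9*, of the same class, lay under its median. For genes over 8 kb the median difference from the control mean was 0.15, 0.06, 0.07 and -0.05 in dcKO_Nex-Cre replicates 1 to 4, and -0.02, 0.08, -0.0055 and -0.05 in control replicates 1 to 4. Replicate 4 was again the lowest mutant library, and control replicate 2 lay above mutant replicates 2 and 3. With an offset for transcript length in each library, the log2 fold changes were 0.24 for *Arid1a*, 0.20 for *Arid1b* and 0.22 for *Arid2* (adjusted p = 0.228, 0.2997 and 0.171, edgeR). The same 3 genes were then higher at an unadjusted p under 0.05, beside 7.38% of all genes. What length contributes beyond this offset was not tested.

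**Figure D5:**
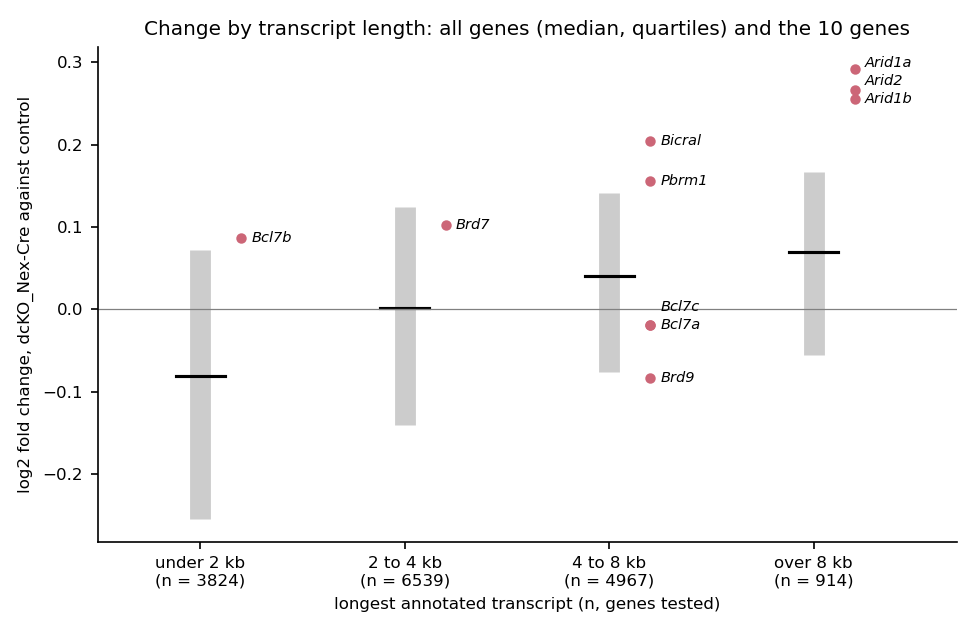
Log2 fold change of dcKO_Nex-Cre against control (y axis) by the length of the longest annotated transcript, with black lines for the median and gray boxes for the quartiles of all tested genes in each class and red points for the 10 genes. The medians run from -0.08 under 2 kb to 0.07 over 8 kb, and the 3 ARID genes lie above the box of the longest class.

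Markers of other cells in the tissue were summed for each library. The oligodendrocyte lineage markers were at 173 to 252 CPM in the control and 252.1 to 308 CPM in the dcKO_Nex-Cre cortex. The lowest mutant library (252.1 CPM) was almost level with the highest control library (252 CPM). All 5 of these markers were higher, 4 of them at an unadjusted p under 0.05 in edgeR, beside 6.59% of all genes. Only *Cspg4*, a proteoglycan of oligodendrocyte precursors, rose past the adjusted threshold (17.8 to 26.2 CPM, adjusted p = 0.0355, edgeR). Markers of radial glia and astrocytes were at 2291 to 2736 CPM against 1863 to 2373 CPM, with 0 of 8 past the adjusted threshold. *Fabp7* made up most of that sum (1584 to 1123 CPM, adjusted p = 0.114, edgeR), while 4 of the 8 were higher and 4 lower. Interneuron markers were at 772 to 904 CPM against 673 to 807 CPM, with 0 of 8 past the adjusted threshold, 2 higher and 6 lower. Among them *Sst* was lower without passing it (95.9 to 53.5 CPM, adjusted p = 0.0645, edgeR). Of 7 microglia markers (90.8 to 106 against 92.05 to 122 CPM) 1 rose past it, the complement gene *C1qb* (20.2 to 27.8 CPM, adjusted p = 0.0422, edgeR). The microglia marker *P2ry12* was lower without passing it (12.1 to 8.12 CPM, adjusted p = 0.0596, edgeR), and of the 7 markers 4 were higher and 3 lower. Of 5 striatum markers (68.3 to 94.6 against 76.05 to 206 CPM) 1 rose past the threshold, *Ppp1r1b* (30.4 to 59.0 CPM, adjusted p = 0.04, edgeR). The highest striatum sum was that of dcKO_Nex-Cre replicate 2. Markers of endothelial cells and pericytes (216 to 302 against 239 to 279.9 CPM), dividing cells (136 to 179 against 161 to 263 CPM), choroid plexus (16.0 to 1327 against 3.54 to 552 CPM) and blood (79.8 to 134 against 78.03 to 182 CPM) overlapped between the groups with none past the threshold. The part of cell composition in the values of the 10 genes was not tested.

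Some of the 10 genes overlap other genes in the annotation. *Pbrm1* shares 15 exon bases with *Gnl3* on the opposite strand, which had 1329 counts per library on average against 3448 for *Pbrm1*. *Bcl7a* shares 13 exon bases with the antisense gene *Gm15860*, which had 43.6 counts against 5167. *Bicral* shares 772 exon bases with *Gm26904* on the opposite strand, which had 0.12 counts on average. Whether reads were counted by strand is not given in the sources used here, so reads in those shared bases cannot be assigned to one gene. The smallest count of the 10 genes in any library was 467, for *Bcl7b*.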

How the data were processed

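Total RNA of P1 cortex was sequenced from TruSeq libraries of 4 control and 4 dcKO_Nex-Cre samples, and the values the authors deposited are raw counts, 1 per Ensembl gene identifier and library. The submitters' processing notes name the build mm10. The aligner, counter, annotation and strand setting are not given in the sources used here. Of 48709 identifiers, 48349 matched GENCODE M21 (GRCm38), which gave symbols, positions and lengths.

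Genes were filtered with filterByExpr, scaled by TMM and compared with the quasi-likelihood F test of edgeR 4.0.16 in R 4.3.3, two-sided, without covariates, with Benjamini-Hochberg adjustment over 16287 genes at 0.05. CPM are counts scaled to the TMM library size. The standard error is the log2 fold change divided by the square root of F, and 95% intervals use the fit's degrees of freedom. Total counts were 18737230 to 24036915 in the control and 17958641 to 35191912 in the mutant, and the biological coefficient of variation was 0.143. No libraries were copies of each other (chi-square per degree of freedom at least 3.77).

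The genes and lists were chosen with earlier results of these data known. Named are the 10 genes, the deleted genes, other subunits past the threshold and *Bicra*, overlapping genes, and at most 3 markers per list past the threshold. *Smarcd1*, *Smarce1*, *Ss18*, *Dpf3*, *Smarca4*, *Fabp7*, *Sst* and *P2ry12* were named after their values were seen. Alternatives were DESeq2 size factors, DESeq2 1.42.0, limma-voom (limma 3.58.1), no filter, at least 10 counts in every library, a replicate block, lane tag 2 only, a transcript length offset, leaving out each library, and, added after seeing the data, leaving out the library of highest mitochondrial share in each group. On simulated data with 200 of 16113 genes changed, the test called all 200 and 4 unchanged genes. Whether it would call differences as small as those of the 10 genes was not tested. Figures were drawn with matplotlib 3.10.9 in Python 3.11.15.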

Additional observations from a re-analysis of the deposited data

How the results depend on the processing

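Of 170 fold changes of the 10 genes under the alternatives, 155 kept their direction and their side of the threshold, 8 passed it, and 7 changed sign, all of *Bcl7a* and *Bcl7c*. *Bcl7a* was at 0.0191 within lane tag 2, and at -0.0613 to 0.0209 when leaving out a library. *Bcl7c* was at -0.0775 to 0.0493 when leaving out a library, *Bcl7b* at 0.03 to 0.13 and *Brd9* at -0.10 to -0.05. The median of all genes stayed between -0.0106 and 0.0185 on the log2 scale in every fit.

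With all 8 libraries, 61 genes were higher and 83 lower at an adjusted p under 0.05. The counts were 215 and 279 with DESeq2, 109 and 150 without a filter on low counts, 140 higher in lane tag 2, and 896 and 898 without control replicate 2 and dcKO_Nex-Cre replicate 4. Leaving out 1 library gave 9 to 659 higher and 9 to 619 lower, with the highest of each without dcKO_Nex-Cre replicate 4. Of the 10 genes, 0 to 3 were then higher at an adjusted p and 1 to 5 at an unadjusted p (4.67% to 4.87% of all genes in the fits with 1, and 14.3% in the fit with 5), the 1 being *Arid2* without control replicate 1, control replicate 4 or dcKO_Nex-Cre replicate 1. In lane tag 2 the numbers were 1 and 5 (11.7% of all genes at the unadjusted p), and without both named libraries 4 and 5 (14.9%). Of the other subunits, 1 was higher with DESeq2 (*Smarce1*), 0 to 2 when leaving out 1 library and 2 without both named libraries (*Smarca4* and *Smarcd1*), and 1 was lower in lane tag 2 and 1 to 2 when leaving out 1 library. Why these numbers moved was not tested.

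With the replicate block, 21 genes were higher and 33 lower, 0 of the 10 genes passed the adjusted threshold, 3 were higher at an unadjusted p under 0.05 (edgeR, 5.57% of all genes), and 1 other subunit was lower (*Smarcc2*). Deviations of samples with the same number correlated at 0.126, 0.0179, 0.135 and -0.138. The labels link a control to a mutant sample only by the number in their titles, so samples were not treated as paired.

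Depth was 467 counts or more for each of the 10 genes in each library.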
